A study of Mus musculus with 10 samples.

Results

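Leucine-rich glioma-inactivated (LGI) proteins are secreted ligands, and a small branch of the ADAM family serves as their receptors on the cell surface. The 7 genes described here are the 4 mouse ligand genes, Lgi1 to Lgi4, and the 3 receptor genes, Adam11, Adam22 and Adam23, out of 46517 genes in the count tables. Lgi4 was chosen by its measured difference between GFP+ and GFP- cells, which exceeded a log2 of 1 in each of 5 tumour models, and the other 6 genes were added as its relatives and receptors. The comparison of GFP+ with GFP- cells is therefore given for the 7 genes as a description, without a p-value. Each of the 7 genes had at least 1 read in some library, and 6 passed the filter on low counts (Lgi1 did not).

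The study sequenced RNA of tumour cells sorted by GFP from 5 mouse allograft models, lettered A to E, of MPNST (malignant peripheral nerve sheath tumour), a cancer that arises from Schwann cells or their precursors. A model gave a pair of libraries, GFP+ cells, which express the CGD transgene, and GFP- cells, which do not, so there were 10 libraries in all. Cells of both groups came from the same dissociated tumours, and dead cells and wild-type host cells had been gated out. The labels do not expand CGD or give its promoter, nor do they give the genotype of the tumours, the strain and age of the hosts, or whether a model stands for 1 animal, so p-values measure the spread between these libraries.

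LGI4 is secreted by Schwann cells and satellite glia, and it acts through ADAM22 on axons in the radial sorting and myelination of peripheral axons. Mice without Lgi4 function (claw paw) have delayed, thin peripheral myelin. LGI1 and LGI2 act mainly in the brain, where LGI1 bound to ADAM22 and ADAM23 bridges the synaptic cleft, and ADAM22 holds on to scaffold proteins and Kv1 potassium channels inside the cell. ADAM11, ADAM22 and ADAM23 belong to the ADAMs that have lost the catalytic zinc site and work as receptors and adhesion proteins rather than as proteases.

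The coding sequences show this loss. The stretch of 11 codons that binds zinc in the active enzymes is printed for Adam12, an active ADAM gene abundant in these tumours, and for the 3 receptor genes, because it separates the receptors from the enzymes. Capitals mark the codons at the positions of the 3 zinc-binding histidines (CAT or CAC) and of the catalytic glutamate (GAA or GAG). The sequences are from GENCODE vM21 transcripts, 5′ to 3′ on the coding strand, and the positions are of the mouse build GRCm38, which is mm10.
Adam12, chr7:133961158-133961190, minus strand: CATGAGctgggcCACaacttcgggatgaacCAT
Adam22, chr5:8143064-8143096, minus strand: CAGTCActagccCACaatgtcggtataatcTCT
Adam23, chr1:63547763-63547795, plus strand: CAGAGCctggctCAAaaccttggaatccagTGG
Adam11, chr11:102773613-102773645, plus strand: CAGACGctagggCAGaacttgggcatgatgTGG

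Adam12 had 3 of 3 histidine codons, Adam22 had 1, and Adam23 and Adam11 had 0. The glutamate codon was kept in Adam12 and in none of the 3 receptor genes. The alignment of Adam11 had a gap within the stretch, and its codons are printed in a row from the first aligned one. Its codons past the gap are therefore placed less surely, and its count of 0 rests on that placing. A search of the whole translated proteins for the zinc-binding motif, which needs no alignment, found it in Adam12 and in none of the 3 receptor genes. The translated proteins of the longest coding transcripts were 53.8% identical over aligned residues between Adam22 and Adam11, 49.9% between Adam22 and Adam23 and 31.9% between Adam22 and Adam12. The coding sequence of Adam22 ended, before its stop codon, in the 4 codons GAGACATCCATT, which encode the tail that binds the PDZ domains of scaffold proteins such as PSD-95.

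Library totals in genes ranged from 15978673 to 22082207 reads, so that 1 read equals about 0.05 CPM (reads scaled to the library's total in genes), and a count of 0 allows up to 0.136 to 0.188 CPM (3 reads, counting error only). The 12 markers of Schwann cells and their precursors had a summed level from 130 to 512 CPM in GFP+ cells and from 113 to 259 CPM in GFP- cells, and the sum was higher in GFP+ cells in 5 of 5 models. Some defining genes of the lineage were scarce: S100b was read in 5 of 10 libraries and reached 2.93 CPM, and Sox10 stayed at 0.434 CPM or less in models A and E. The 6 fibroblast markers, all read in all 10 libraries, summed to between 16140 and 29050 CPM in GFP+ cells and between 16050 and 31430 CPM in GFP- cells. Col3a1 (11260 CPM over 10 libraries), Col1a1 (6335 CPM) and Dcn (3037 CPM) were the largest parts. Of the 6, 1 had a higher and 5 a lower fitted value in GFP+ cells (median log2 -0.30). Pdgfra (1463 CPM) had a higher GFP+ value in 0 of 5 models (log2 -0.51, SE 0.13). The leukocyte list summed to at most 18.6 CPM, nearly all of it Cd68, with Ptprc at 0.453 CPM or less, and the endothelial list to at most 4.07 CPM. Of the 10 neuronal markers, the neuron-specific Rbfox3 reached 0.0550 CPM at most, Elavl3 0.586 CPM and Syp 0.932 CPM. Syt1, Snap25, Elavl4 and Tubb3 were read in all 10 libraries and reached 19.1, 2.115, 2.58 and 3.02 CPM. The neuronal list summed to between 103 and 288 CPM in GFP+ cells and between 55.5 and 180 CPM in GFP- cells. Its sum was higher in GFP+ cells in 4 of 5 models. Gap43 (68.5 CPM over 10 libraries), which Schwann cells also express, is in both the Schwann cell and the neuronal list. The next largest parts of the neuronal sum were Stmn2 (55.7 CPM) and Map2 (13.7 CPM). Stmn2 had a higher GFP+ value in 4 of 5 models and Map2 in 1 of 5. In these bulk libraries, fewer cells that express a gene and less RNA per cell cannot be told apart.

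Lgi4 (ENSMUSG00000036560, chromosome 7, 31059342 to 31070935, plus strand), the Schwann cell ligand, was the member with the widest range. In GFP+ cells of models A to E, in that order, it stood at 0.778, 7.78, 8.64, 35.4 and 0.386 CPM. In GFP- cells, in the same order, it stood at 0.257, 2.22, 1.82, 2.69 and 0 CPM. Model D alone carried the high GFP+ value, and GFP- cells did not reach 3 CPM in any model.

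The GFP+ value of Lgi4 was above the GFP- value in 5 of 5 models, although the groups overlapped across models, because GFP+ cells of A and E lay below GFP- cells of B, C and D. The ratio of GFP+ to GFP- CPM was 3.03 in A (95% interval for counting error 1.03 to 10.7, from 14 against 5 reads), 3.50 in B (2.52 to 4.95) and 4.76 in C (3.25 to 7.14). It was 13.1 in D (9.65 to 18.3, from 645 against 43 reads). In E there were 8 reads against 0, and the 95% interval for counting error had a lower end of 1.52 and no upper end. Setting 3 reads as the floor of the GFP- library, and taking the 8 reads as exact, gives 2.37-fold. GFP+ cells averaged 10.6 ± 14.4 CPM and GFP- cells 1.40 ± 1.20 CPM (SD, n = 5 each), and the fitted log2 difference was 2.49 (SE 0.39), or 2.04 without model D.

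A log2 difference over 1 in each of the 5 models, on which Lgi4 was chosen, was met by 13 of 13986 tested genes (0.0930%). The smallest of its 5 log2 differences was 1.26 (log2 CPM with a prior count of 2), against 1.04 for Myo5b, the last gene inside that limit, and 0.95 for Gjc3, the first outside. The summed Schwann cell markers differed in the same direction as Lgi4. Their sum in GFP+ against GFP- cells was 512 against 220 CPM in model D, 386 against 259 in C and 206 against 136 in B, but 130 against 113 in A and 194 against 184 in E. Pmp22 (88.7 CPM over 10 libraries) and Gap43 (68.5 CPM) were the largest parts of the sum. Pmp22 had a higher GFP+ value in 1 of 5 models (log2 -0.31, SE 0.13), and Gap43 in 5 of 5 (log2 0.93, SE 0.36). In model D, 2 other markers of the list differed widely, Sox10 at 112 against 3.69 CPM and Erbb3 at 64.9 against 2.065 CPM. In A and E both stayed at 1.16 CPM or less. The part of these markers in the difference of Lgi4 was not tested.

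**Figure D1:**
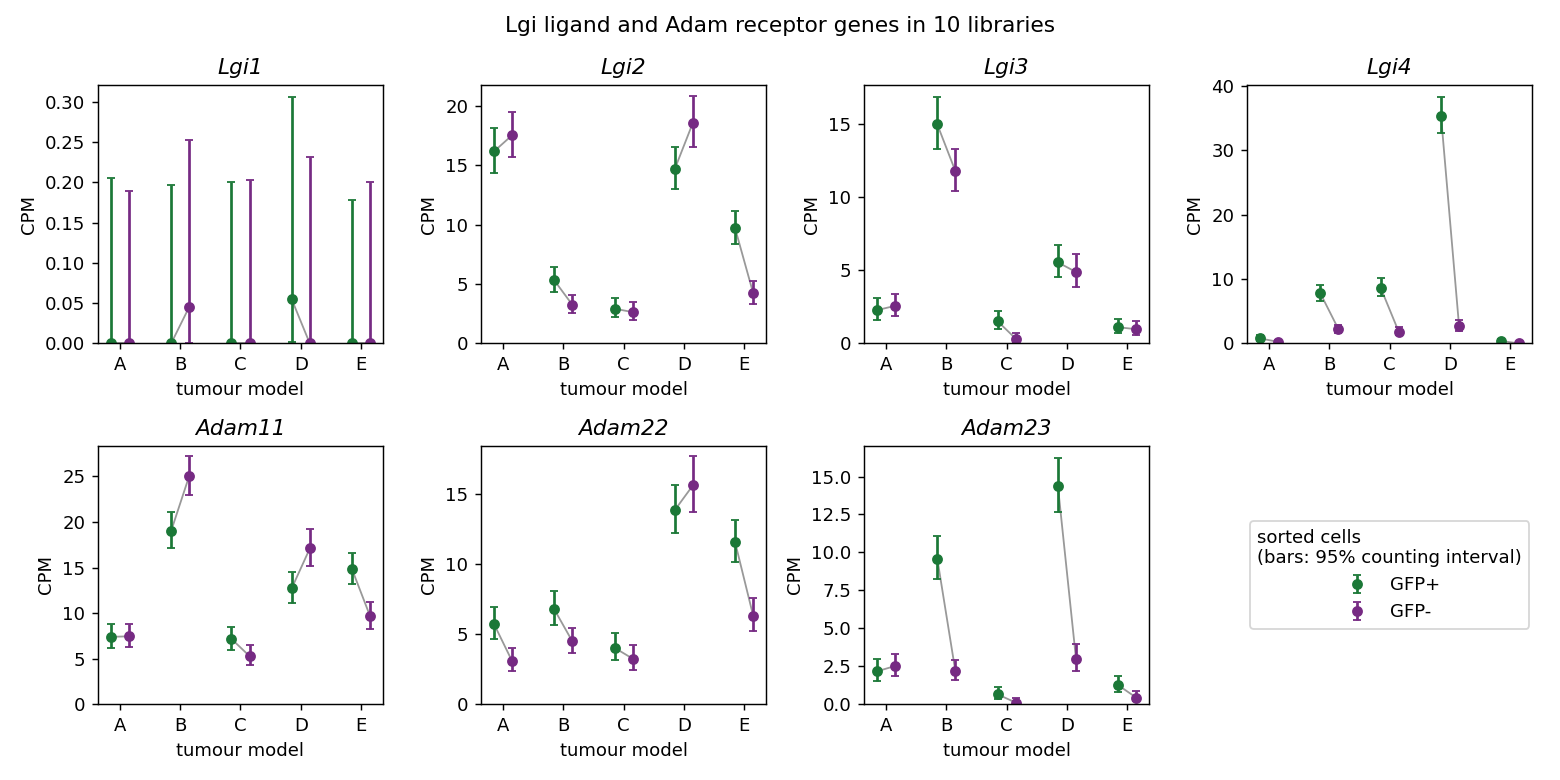
CPM of the 7 genes (vertical axes, from 0, a scale per gene) in GFP+ (green) and GFP- cells (purple) of tumour models A to E; bars are 95% intervals for counting error, and grey lines join the libraries of a model. GFP+ cells of model D stand apart for Lgi4 at 35.4 CPM, Adam23 is high in GFP+ cells of B and D, and Lgi1 has 1 read at most.

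The other ligand genes had smaller differences between the populations. Lgi2 (ENSMUSG00000039252, chromosome 5, 52533517 to 52566462, minus strand), a ligand best known from the brain, stood at 16.2, 5.33, 2.93, 14.7 and 9.70 CPM in GFP+ cells of A to E. The GFP- values, in the same order, were 17.5, 3.26, 2.64, 18.6 and 4.23 CPM. The level of Lgi2 followed the tumour model, with A and D high in both populations. Its GFP+ value was higher in 3 of 5 models, with a fitted log2 difference of 0.27 (SE 0.24). That difference was 0.02 without model E, where the ratio was 2.29 (1.76 to 3.02).

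Lgi3 (ENSMUSG00000033595, chromosome 14, 70530685 to 70538324, plus strand), a ligand of neurons that is also made outside the nervous system, was highest in model B. Its GFP+ values in A to E were 2.28, 14.96, 1.52, 5.54 and 1.11 CPM, and its GFP- values were 2.57, 11.8, 0.330, 4.88 and 0.976 CPM. The populations of a model lay close together except in C, with 28 reads against 6 (ratio 4.61, 1.87 to 13.6). The fitted log2 difference was 0.37 (SE 0.30), with a higher GFP+ value in 4 of 5 models, and it was 0.10 without model C. Lgi1 (ENSMUSG00000067242, chromosome 19, 38264536 to 38312214, plus strand), the epilepsy-linked ligand, had 1 read in GFP+ cells of D, 1 in GFP- cells of B and 0 in the other 8 libraries.

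**Figure D2:**
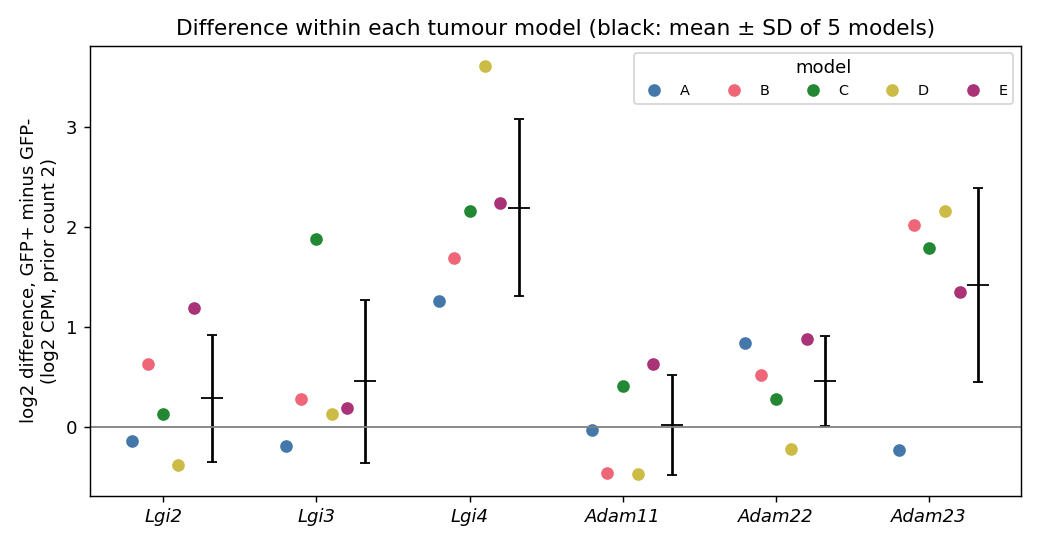
Log2 difference between GFP+ and GFP- cells (vertical axis, log2 CPM with a prior count of 2) within each tumour model (coloured points) for the 6 members that passed the filter; black bars are the mean ± SD of 5 models. The 5 points of Lgi4 lie above 1, those of Adam23 lie above 1 except in model A, and those of Adam11 fall on both sides of 0.

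Among the receptors, Adam23 differed most between the sorted populations. Adam23 (ENSMUSG00000025964, chromosome 1, 63445891 to 63596276, plus strand), which binds LGI1 and other LGI proteins, stood at 2.17, 9.59, 0.652, 14.4 and 1.25 CPM in GFP+ cells of A to E. The GFP- values were 2.52, 2.17, 0.110, 3.004 and 0.434 CPM. GFP+ cells of B and D were the highest of the 10 libraries, and model A alone went the other way.

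The ratio of GFP+ to GFP- CPM of Adam23 was 4.41 in B (95% counting interval 3.19 to 6.20), 5.92 in C (1.32 to 54.5, from 12 against 2 reads), 4.78 in D (3.50 to 6.65) and 2.89 in E (1.27 to 7.39). In A it was 0.860 (0.550 to 1.34). GFP+ cells averaged 5.61 ± 6.08 CPM and GFP- cells 1.65 ± 1.30 CPM (SD, n = 5 each), and the fitted log2 difference was 1.52 (SE 0.41), ranging over the alternatives from 1.28 without model D to 2.04 without model A.

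Adam22 (ENSMUSG00000040537, chromosome 5, 8072352 to 8368160, minus strand), the receptor through which LGI4 acts in peripheral nerve, varied less. Its GFP+ values in A to E were 5.72, 6.76, 4.02, 13.8 and 11.5 CPM, and its GFP- values were 3.08, 4.48, 3.25, 15.6 and 6.29 CPM. GFP+ cells were higher in 4 of 5 models, by 1.86-fold in A (1.34 to 2.60), 1.51-fold in B (1.15 to 1.98), 1.24-fold in C (0.867 to 1.77) and 1.83-fold in E (1.46 to 2.31). In D, where Lgi4 differed most, the ratio of Adam22 was 0.887 (0.741 to 1.06). The fitted log2 difference of Adam22 was 0.46 (SE 0.20), or 0.65 without model D.

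Adam11 (ENSMUSG00000020926, chromosome 11, 102761439 to 102780262, plus strand), a receptor known from cerebellar synapses, had no common direction. GFP+ cells of A to E stood at 7.39, 19.0, 7.17, 12.7 and 14.8 CPM, and GFP- cells at 7.45, 25.04, 5.28, 17.1 and 9.65 CPM. Its GFP+ value was above the GFP- value in C and E, below it in B and D, and almost equal to it in A (ratio 0.992). The fitted log2 difference was 0.0017 (SE 0.19) and changed sign between alternatives, from -0.17 without model E to 0.13 without model B.

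Across all tested genes, edgeR's quasi-likelihood test with the model as a block called 0 of 13986 genes between GFP+ and GFP- cells at an adjusted p under 0.05 (0%), with 1257 genes at an unadjusted p under 0.05, and DESeq2 with the same block called 190. A higher GFP+ value in 5 of 5 models was found in 6.51% of tested genes. Of the members Lgi4 had it, and since Lgi4 was chosen on this contrast nothing is read from that count.

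Levels of different genes were compared per length, as RPKM (CPM per kilobase of the union of annotated exons). The leading ligand gene depended on the tumour. Lgi2 led in 6 of 10 libraries, among them both of A and both of E, where it made up 72.1% to 80.1% of the summed RPKM of the 4 ligand genes. Lgi3 led in both libraries of B (3.84 RPKM in GFP+ and 3.02 in GFP- cells).

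Lgi4 led in GFP+ cells of C and D, where it made up 69.2% and 67.7% of the ligand sum. In GFP- cells of D its share was 12.5%, and in GFP- cells of C it was 44.7%, just under Lgi2 at 45.7%. With the length of the longest annotated transcript, Lgi4 led in that library too, at 46.7%. The ligand sum was highest in GFP+ cells of D at 11.4 RPKM and lowest in GFP- cells of C at 0.886 RPKM.

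Adam11 was the leading receptor gene per length in 10 of 10 libraries, with 56.0% to 91.1% of the receptor sum. Adam22 made up 6.44% to 25.5% of the RPKM sum and Adam23 0.528% to 20.01%. The RPKM of Adam22 and Adam23 depends on the length used. With the longest transcript, Adam23 reached 35.9% in GFP+ cells of D, against 40.1% for Adam11.

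**Figure D3:**
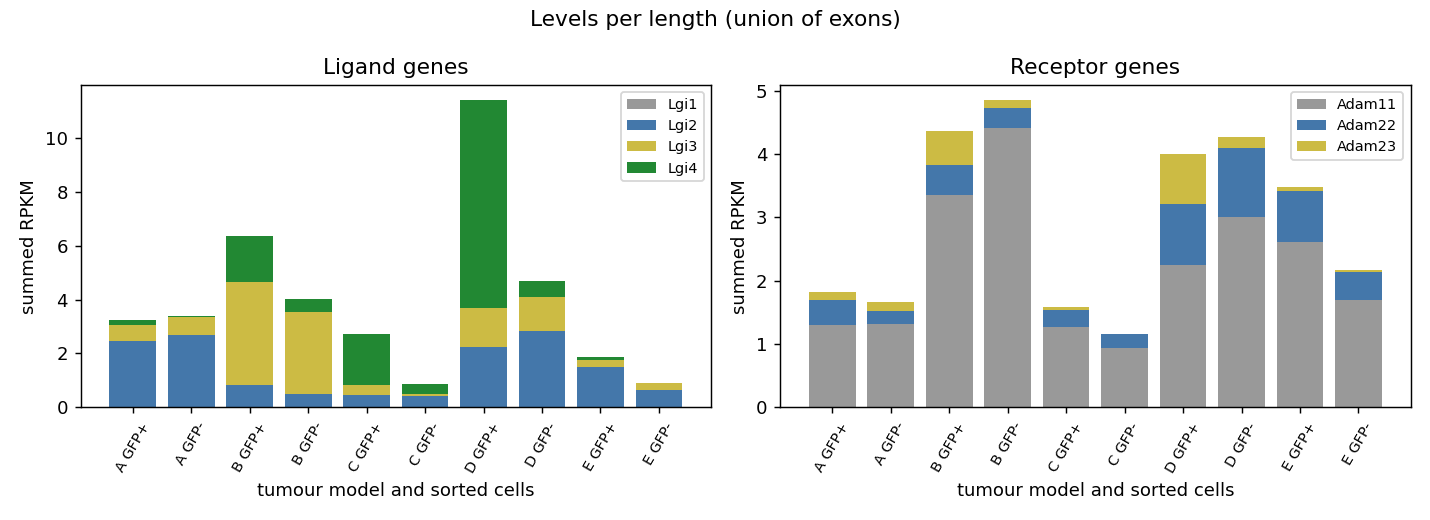
Summed RPKM (vertical axes) of the ligand genes (left) and the receptor genes (right) in each of the 10 libraries, ordered by tumour model. Lgi4 is the largest part in GFP+ cells of C and D, Lgi3 in both libraries of B and Lgi2 in both libraries of A and E, while Adam11 is the largest receptor part throughout.

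The difference between tumour models was tested with edgeR's quasi-likelihood F test over the 5 models, with the sorted population as a covariate. The libraries of a model share its tumour, so this test reads the spread between sorted populations, not between animals. Of 13986 tested genes 7655 (54.7%) passed at an adjusted p under 0.05, so that a member that passes does what most genes did. Lgi4 (adjusted p = 0.00203 by edgeR), Lgi3 (0.00232), Lgi2 (0.00462), Adam22 (0.00584), Adam23 (0.00706) and Adam11 (0.0100) passed.

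By the mean of its 2 libraries, Lgi4 was highest in D (19.0 CPM), followed by C (5.23), B (4.997), A (0.517) and E (0.193). The libraries of neighbouring models overlapped between D and C, C and B, and A and E, and did not overlap between B and A. Adam23 had the order D (8.69 CPM), B (5.88), A (2.34), E (0.844) and C (0.381), and the libraries of A and E did not overlap. C was thus among the higher models for Lgi4 and the lowest for Adam23.

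Adam22 was highest in D at 14.7 CPM, apart from E at 8.91, and B, A and C followed at 5.62, 4.40 and 3.63 CPM with overlapping neighbours. Adam11 was highest in B (22.0 CPM), followed by D (14.9), E (12.2), A (7.42) and C (6.23), and the libraries of D and E overlapped. Lgi3 had the order B (13.4 CPM), D (5.21), A (2.42), E (1.04) and C (0.926), and the libraries of E and C overlapped. Lgi2 was highest in A and D (16.8 and 16.6 CPM, overlapping), then E (6.97) and B (4.29, overlapping E), and lowest in C (2.79).

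Lgi4 overlaps Fxyd3, which encodes a small regulator of the sodium pump, on the other strand of chromosome 7 from 31068172 to 31070935, and the exons of the genes share 2059 bases. Counted on its own strand, Fxyd3 had 200 reads in GFP+ and 48 in GFP- cells of model C (10.9 and 2.64 CPM; ratio 4.11, 2.99 to 5.76), 9 and 4 in D, and 1 or 0 in the other 6 libraries. Reads on the strand opposite to Lgi4 numbered 123 and 27 in C, 5 and 4 in D and 0 elsewhere. They were 0 also in GFP+ cells of B, where Fxyd3 had 1 read. GFP+ cells of B had 146 Lgi4 reads beside 1 of Fxyd3, and GFP+ cells of D had 645 beside 9. In reverse, reads opposite to Fxyd3 were highest where Lgi4 was, at 389 in GFP+ cells of D.

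Without regard to strand, reads in the shared exons count for neither gene. The Lgi4 count then fell from 645 to 267 in GFP+ cells of D and from 146 to 50 in GFP+ cells of B, and from 5 to 0 in GFP- cells of A. The log2 difference of Lgi4 was 2.66 on those counts, against 2.49 with strand. Of the other neighbours, Fxyd5 had a log2 difference of 0.18 (SE 0.22) at an adjusted p of 0.854 by edgeR, and Fxyd1 of 0.20 (SE 0.79) at 0.970. Fxyd7 averaged 0.856 CPM and was not tested.

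**Figure D4:**
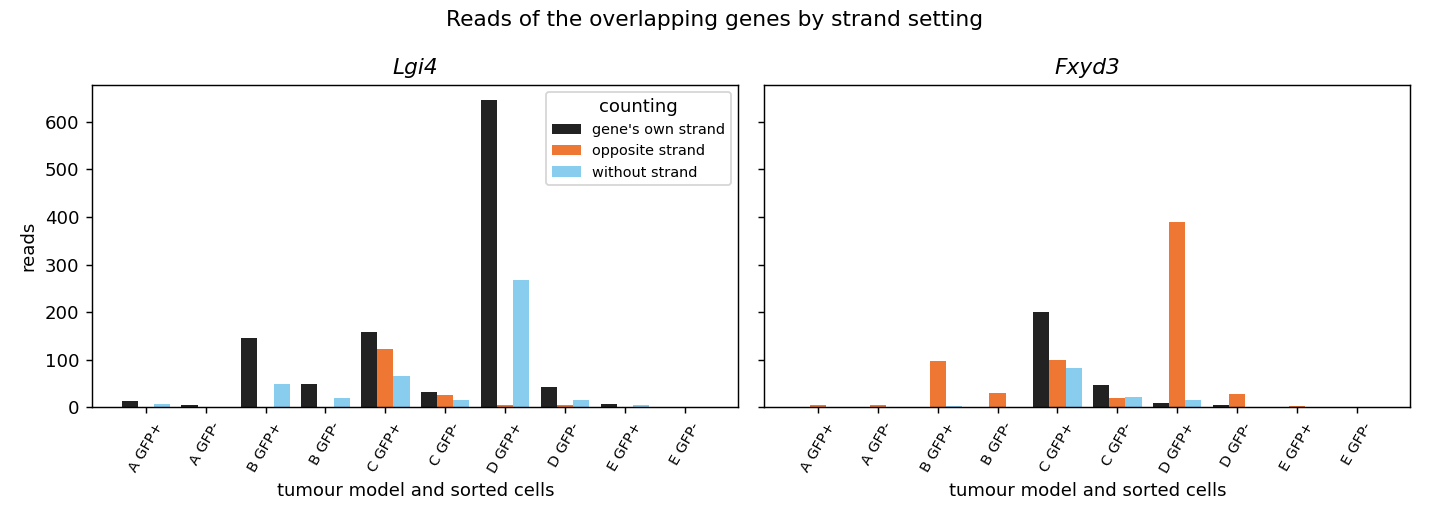
Reads (vertical axis, from 0) of Lgi4 (left) and Fxyd3 (right) in each library, counted on the gene's own strand (black), on the opposite strand (orange) and without strand (blue). Lgi4 has 645 own-strand reads in GFP+ cells of D but 267 without strand, and Fxyd3 has own-strand reads mainly in model C.

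The inside partners of ADAM22, Kv1 potassium channel genes and scaffold genes, were taken as a list of 15, of which 8 passed the filter. Of the 8, 0 passed edgeR's test in either direction between GFP+ and GFP- cells. Since 0 of 13986 tested genes (0%) passed, nothing is read from a count of 0 here or in the lists below. Of the 8, 5 had a higher and 3 a lower fitted value, and the median log2 difference was 0.02 (-0.0028 over all tested genes). Dlg4, which encodes the scaffold PSD-95, averaged 109 ± 33.5 CPM in GFP+ cells against 119 ± 56.7 CPM in GFP- cells (SD, n = 5 each; log2 -0.05, SE 0.16). The related scaffold genes Dlg1 (117 CPM over 10 libraries) and Dlg3 (97.0 CPM) and the membrane skeleton gene Epb41l3 (240 CPM) had log2 differences of -0.38 (SE 0.17), 0.14 (SE 0.08) and 0.03 (SE 0.10).

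The channel genes were low. Kcna1 ranged from 0.0550 to 1.86 CPM, with 35 reads in GFP+ against 6 in GFP- cells of B, 12 against 1 in C, 21 against 10 in D, 11 against 7 in E and 4 against 4 in A. Kcna2 had 76 against 10 reads in B, 96 against 5 in D, 3 against 0 in C and 0 in the libraries of A and E. Neither was tested. Kcna6, named here after its values were seen, had 175 against 30 reads in C, 168 against 34 in D and 51 against 20 in B, with 4 reads or fewer in A and E (log2 2.02, SE 0.40, adjusted p = 0.310 by edgeR). Kcna4, another pore subunit gene of the list, also named after its values were seen, averaged 3.42 CPM and had a log2 difference of 0.01 (SE 0.35).

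The 14-3-3 genes, whose proteins bind the ADAM22 tail, had 7 of 7 members tested and 0 passing (0% over all tested genes). Their median log2 difference was 0.11. Ywhae stood at 521 CPM over 10 libraries, Ywhag at 365, Ywhaz at 296 and Ywhab at 202, and their log2 differences were 0.03, 0.11, 0.15 and 0.0010. Of the 9 genes of the Nogo receptor complex, another site to which LGI1 binds, 5 were tested and 0 passed (0% over all tested genes; median 0.11). Rtn4, the Nogo ligand gene, stood at 382 CPM over 10 libraries, but its receptor gene Rtn4r at 0.121 CPM. Ngfr had a log2 difference of 1.49 (SE 0.85, adjusted p = 0.644 by edgeR), Lingo1 of -0.41 (SE 0.25) and Tnfrsf19 of 0.03 (SE 0.22).

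Among the ADAM genes that keep the zinc site, 8 of 9 were tested and 0 passed, as over all tested genes (0%). The median log2 difference was 0.03. Per length the 4 with the highest mean CPM were above the receptor members: Adam10 stood at 38.4 RPKM over 10 libraries, Adam9 at 37.4, Adam15 at 30.2 and Adam17 at 18.2, against 2.22 for Adam11, 0.520 for Adam22 and 0.202 for Adam23. The log2 differences of these 4 genes were 0.03, 0.03, 0.12 and -0.02. Others of the list had larger log2 differences. Adam12, the reference for the zinc site, had a log2 difference of 0.74 (SE 0.19, adjusted p = 0.379 by edgeR) and a higher GFP+ value in 5 of 5 models. Adam19 stood at 0.59 (SE 0.26) and Adam33 at -1.05 (SE 0.56), both named after their values were seen, and Adam33, at 2.002 RPKM, was below Adam11. Of the 5 other ADAM genes without the site, which are mostly genes of the testis and epididymis, Adam32 was tested (0.611 CPM over 10 libraries, log2 0.28, SE 0.45), and Adam18 and Adam29 had 0 reads in all 10 libraries.

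The list of Schwann cell myelination regulators, the programme in which LGI4 takes part, had 17 of 19 genes tested. Of these 0 passed, as over all tested genes (0%), and 9 were higher and 8 lower (median 0.0041). Sox10, the lineage factor of Schwann cells, stood at 17.1 against 1.63 CPM (GFP+ against GFP-) in B, 52.6 against 7.65 in C and 112 against 3.69 in D, the models in which Lgi4 was above 7 CPM in GFP+ cells. In A it had 2 against 1 reads and in E 9 against 0. Lgi4 was read at 14 and 5 reads in A, so it exceeded Sox10 in reads there. Pou3f1, a factor of promyelinating cells, was higher in GFP+ cells in 5 of 5 models (log2 1.95, SE 0.56, adjusted p = 0.396 by edgeR). Its reads were 115 against 6 in C, 97 against 12 in D, 36 against 21 in B and 19 against 7 in E. In A they were almost equal, at 10 against 9.

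Egr2, the master regulator of myelination, did not share this direction. GFP+ cells averaged 21.0 ± 8.79 CPM of Egr2 against 25.5 ± 16.3 CPM in GFP- cells (SD, n = 5 each; log2 -0.15, SE 0.29), and its GFP+ value was the lower in B, C and D. The most abundant genes of the list, Tead1, Nfatc4, Nab2 and Hdac2, had log2 differences of -0.04 (SE 0.13), -0.28 (SE 0.13), -0.26 (SE 0.09) and 0.0041 (SE 0.08).

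The genes whose log2 CPM was most like that of Lgi4 were ranked by Pearson's r over the 10 libraries among 13985 genes. The libraries share tumours in pairs, the GFP contrast on which Lgi4 was chosen enters r, and r is given as a description. The 8 highest were Mmp15 (a membrane metalloprotease gene, r = 0.977), Gjc3 (a connexin gene of glia, 0.958), Sox10 (0.949), Zfp536 (a zinc finger gene, 0.947), Kcmf1 (0.938), Mocos (0.931), Serpina3n (0.929) and Sox6 (0.926). With Spearman's rho, tied genes sharing the better rank, 6 of the 8 remained among the 8 highest, and with a prior count of 0.5 there were 5. Kcmf1, which varied only from 73.4 to 107 CPM, fell to rank 28 by rho and rank 20 with that prior count. Sox6 fell to ranks 51 and 82, and Mocos to rank 10 with that prior count.

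Mmp15 ranked first by r with either prior count and shared the first rank with Serpina3n by rho. It stood at 1.11 against 0.360 CPM (GFP+ against GFP-) in A, 7.40 against 1.59 in B, 4.35 against 0.936 in C, 11.5 against 2.44 in D and 0.386 against 0 in E. For the receptors r was 0.527 for Adam23 (rank 1761), 0.250 for Adam22 (rank 4297) and 0.208 for Adam11 (rank 4734). Among the ligands it was 0.467 for Lgi3 and -0.0546 for Lgi2.

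**Figure D5:**
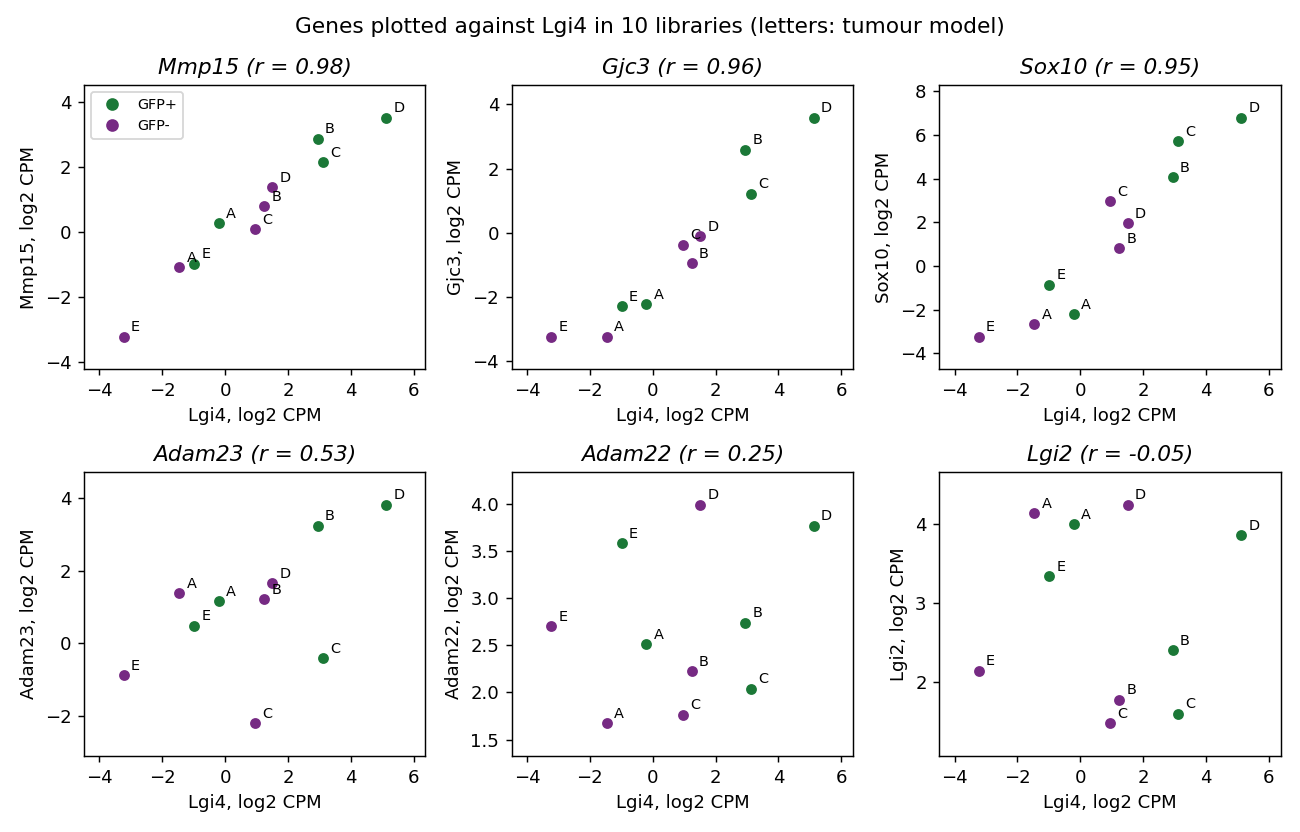
Log2 CPM (prior count 2) of 6 genes (vertical axes) against that of Lgi4 (horizontal axes) in 10 libraries; green points are GFP+ and purple points GFP- cells, and letters give the tumour model. Mmp15, Gjc3 and Sox10 lie along a line with Lgi4 (r from 0.949 to 0.977), with A and E low and GFP+ cells of D highest, while Adam23, Adam22 and Lgi2 scatter.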

How the data were processed

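The deposited files hold raw read counts per gene, 1 table for each of 10 libraries, in the layout of STAR's gene counts; STAR 2.4.2.8 and mm10 are named in the submitters' processing notes, while the sources used here do not give the annotation, kit or strandedness. The fourth column, reads on the strand of a reverse-stranded library, was used because it held 96.9% to 97.1% of stranded gene reads; the 4 summary lines were left out of totals and tests. Symbols, coordinates and exon lengths came from GENCODE vM21.

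CPM used library totals in genes. edgeR 4.0.16 (R 4.3.3) was run with TMM scaling and filterByExpr (13986 genes), with quasi-likelihood tests at a Benjamini-Hochberg adjusted p under 0.05: GFP+ minus GFP- with the model as a block, as the series design states a paired comparison, and the 5 models with the population as covariate. Pairs come from the same tumour model, and within them the libraries' deviations from their population's mean had correlations from 0.628 to 0.867. The fits were tested on simulated data. Ligand and receptor intervals are exact for counts at 95% and cover counting error only. ADAM coding sequences were translated and globally aligned, with Adam12 as the zinc-site reference.

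Members and gene lists were chosen with earlier results of these data known. The named genes were the 7 members, Fxyd3, the 8 genes most like Lgi4, the 4 members with the highest mean CPM of each other list, and Dlg4, Kcna1, Kcna2, Sox10, Egr2 and Pou3f1. Alternatives were RLE factors, library totals, other filters, DESeq2 1.42.0, unstranded counts, no replicate block, no population term, each model left out, a prior count of 0.5, Spearman's rho and, added after seeing the data, the longest transcript as gene length.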

Additional observations from a re-analysis of the deposited data

Results flagged for a closer look

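In 18 sets of 5 values (the CPM of each population and the differences within models, for 6 members), 3 had a sample far from the others, its gap to the nearest value taking over 0.71 of the whole range. Chance flags about 1 set in 20 where the values are independent and normally distributed. CPM can be skewed and the sets share values, so that rate need not hold here. GFP+ cells of model D stood apart for Lgi4 (35.4 CPM, gap 0.764 of the range). GFP- cells of D stood apart for Adam22 (15.6 CPM, gap 0.743), and model C for the difference of Lgi3 between populations (log2 1.88, gap 0.774), which rests on 28 against 6 reads.

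Reads on the strand opposite to a member, which the comparisons do not use, exceeded the 3 that a count of 0 allows for 3 members. Lgi4 had 123 in GFP+ cells of model C, where Fxyd3 lies on that strand. Adam22 had 7 to 29 in each library, the most in GFP+ cells of B, and its annotated genes on that strand share no exon bases with it. Adam11 had at most 6, in GFP+ cells of B.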

How the results depend on the processing

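The count of genes called between GFP+ and GFP- cells was 0 in the main fit and 47 with no filter on low counts and 190 with DESeq2; it was 0 under the other alternatives, including no replicate block (0 called against 0 with the paired fit) and each model left out. The count called between tumour models, 7655, ranged from 4038 (without model C) to 7545 (without model A) when a model was left out, and from 7337 to 8398 otherwise. The log2 differences of the 6 tested members moved by less than their SD over models under each alternative. Leaving out a model can hardly move a mean by that much, so stability is not read from this limit. The ranges were 2.04 to 2.87 for Lgi4, 1.28 to 2.04 for Adam23 and 0.33 to 0.65 for Adam22. They were 0.10 to 0.51 for Lgi3, 0.02 to 0.45 for Lgi2, and -0.17 to 0.13 for Adam11, with a change of sign. Each of the 6 kept an adjusted p under 0.05 between models, the highest being 0.0446 for Adam23. Depth limits Lgi4 in A and E, with 0 to 14 reads, and Adam23 in C, with 12 and 2.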
